A study of Homo sapiens with 17 samples.

Results

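The RNA that came through a mock immunoprecipitation (mock IP) was compared with total RNA of the same cells, across the repeat sequences of the human genome. The libraries were taken by their titles, which gave 3 mock IP and 6 total RNA libraries of the 17 in the series. The 4 ORF1p and 4 ORF2p RIP libraries were not compared here. They entered the count filters, the scaling factors and the estimate of the spread between libraries. All came from clone 2/A6 of N2102Ep, an established human embryonal carcinoma line, with no genetic change or drug named for any group. The mock IP libraries have mIgG in their names. Neither the antibody or bead used nor the RIP it was made to match is given in the labels. Within total RNA, the library names fall into 2 series, b (replicates 1 and 2) and bl (replicates 3 to 6), and no source used here says what the letters stand for, so each comparison is given against all 6 libraries and against each series apart. The labels do not tie replicates to separate cultures, so a p-value here measures library-to-library spread, part or all of which may be technical.

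In a mock IP, a nonspecific antibody takes the place of the one against the protein of interest, and what stays on the affinity medium is the background that a true pull-down has to exceed. A large part of the human genome descends from transposable elements, and several kinds remain transcribed in pluripotent and embryonal carcinoma cells. HERVH is an endogenous retrovirus whose internal part (HERVH-int) lies between long terminal repeats of the LTR7 group, and its transcripts are a known mark of human pluripotent cells, where they are found largely in the nucleus and in part as long noncoding RNAs. LINE-1 (L1) is the autonomous retrotransposon of the genome, Alu elements are short sequences that depend on it and lie mostly within the introns and untranslated ends of genes, and HERVK is the youngest family of endogenous retroviruses.

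Each library held between 8937441 and 19670774 estimated counts in repeats. The table listed 3594049 single repeat loci, of which 347397 (9.67%) reached a summed count of 100 over the 17 libraries and were tested, as were 1074 of 1080 subfamilies. Levels below are CPM, that is counts scaled to a common library size (CPM of repeat counts) with TMM factors, and differences are fitted log2 differences ± standard error (SE). A feature was called when the Benjamini-Hochberg adjusted p of edgeR's quasi-likelihood test over all features of its table was under 0.05 and the change was at least 2-fold. Every adjusted p of a subfamily, locus or gene span is from that test. Repeat reads within the spans of defining genes of embryonal carcinoma cells were present in every library, POU5F1, NANOG, LIN28B and DNMT3B among them, and the 15 listed pluripotency genes with reads summed to 2227 to 2388 CPM in mock IP and 1899 to 2411 CPM in total RNA. Marker lists of other cells were near the floor in both groups: 8.37 to 11.9 CPM against 3.25 to 8.40 CPM for 6 fibroblast genes, with 1 of the 6 at 0, and 4.88 to 6.03 CPM against 3.27 to 6.80 CPM for 7 blood cell genes. The 11 neural and germ layer genes, 2 of them at 0, summed to 15.97 to 19.4 CPM in the mock IP and 11.3 to 15.9 CPM in total RNA, and their part in the results was not tested. In such bulk libraries fewer cells of a type and less RNA per cell cannot be told apart.

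The 2 total RNA series stood apart from each other, and the mock IP was nearer to b than to bl. The median absolute difference in log2(CPM + 1) over subfamilies was 0.0664 to 0.105 between 2 mock IP libraries, 0.0591 between the 2 b libraries and 0.0723 to 0.122 between 2 bl libraries. It was 0.106 to 0.195 between a mock IP and a b library, 0.287 to 0.427 between a mock IP and a bl library, and 0.36 to 0.515 between a b and a bl library. Over loci the medians of these 3 kinds of pair were 0.287, 0.413 and 0.419, and over gene spans 0.255, 0.501 and 0.591. Such distances have no direction and cannot place the mock IP between the series. In the test of bl over b, 60 subfamilies (5.59%) were called higher and 100 (9.31%) lower, as were 40702 loci (11.7%) and 38877 loci (11.2%). The same held for 1020 gene spans (7.7%) called higher and 3120 (23.6%) called lower. The difference between the series was therefore a large part of the spread within total RNA, and each result below is set beside both. The comparisons with b and with bl share the 3 mock IP libraries and are not independent of each other.

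HERVH and its LTR7 ends were higher in the mock IP than in either total RNA series. HERVH-int alone made up the largest part of this: its level was 196636, 171507 and 177814 CPM in the 3 mock IP libraries, 106666 and 91192 CPM in the b libraries, and 80377, 74285, 73867 and 76821 CPM in the bl libraries. All 3 mock IP values lay above all 6 total RNA values, and b lay above bl. The fitted difference over total RNA was 1.12 ± 0.19 (adjusted p = 0.00391). With library totals in place of TMM it was 0.99, just under 2-fold. It was 0.88 ± 0.22 over b (adjusted p = 0.0419), below the 2-fold mark, and 1.25 ± 0.18 over bl (adjusted p = 1.28e-05). LTR7, the long terminal repeat that serves as the promoter of most transcribed HERVH copies, stood at 13683, 10404 and 10902 CPM in the mock IP, at 6691 and 5867 CPM in b and between 3051 and 3635 CPM in bl. Its difference was 1.45 ± 0.24 over total RNA (adjusted p = 0.00391), 0.89 ± 0.18 over b (adjusted p = 0.0178) and 1.84 ± 0.15 over bl (adjusted p = 3.4e-08). The related LTR7Y read 910, 664 and 711 CPM in the mock IP, 453 and 405 CPM in b and 210 to 223 CPM in bl, a difference of 1.41 ± 0.24 over total RNA. For each of these 3 subfamilies the groups did not overlap and the order was mock IP, b, bl.

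**Figure D1:**
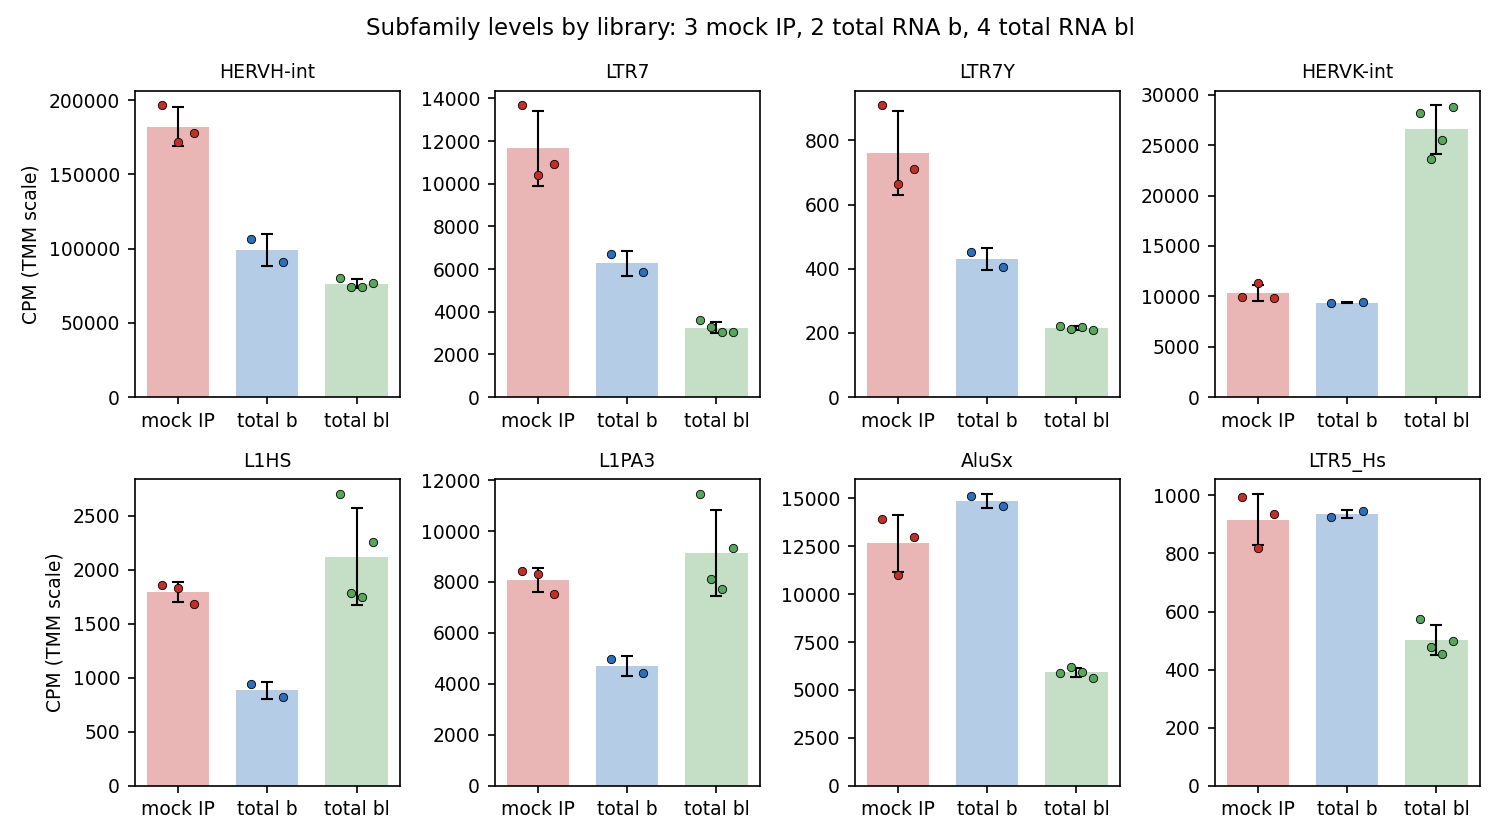
Level of 8 repeat subfamilies in each library, in CPM on the TMM scale, for the 3 mock IP, 2 total RNA b and 4 total RNA bl libraries. Bars are means, whiskers are SD and points are single libraries. HERVH-int, LTR7 and LTR7Y are highest in the mock IP, while HERVK-int, L1HS and L1PA3 are highest on average in bl (26554 CPM for HERVK-int) and AluSx in b (14866 CPM).

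Over all 1074 subfamilies, 8 (0.745%) were called higher in the mock IP than in total RNA and 0 lower. At an unadjusted p under 0.05, 179 were lower, 9 of them by 2-fold or more, and DESeq2 called 10 higher and 6 lower. With libraries scaled to their totals alone, edgeR called 7 higher and 10 lower. Fitted on the 9 mock IP and total RNA libraries alone, 1 was called, HERVH-int, and LTR7 and LTR7Y had adjusted p-values of 0.0504 and 0.0534. In 76 subfamilies (7.08%) all 3 mock IP libraries lay above all 6 total RNA libraries, and in 45 (4.19%) below. All 8 called were LTR elements. Besides HERVH-int, LTR7 and LTR7Y they were HERV-Fc1-int with its LTR HERV-Fc1_LTR1, HERVFH21-int, LTR6B and LTR46-int, which are other retroviral internal parts and long terminal repeats of the ERV1 family. LTR46-int read 179, 164 and 173 CPM in the mock IP, 110 and 93.8 CPM in b and 50.9 to 65.2 CPM in bl, a difference of 1.24 ± 0.21 (adjusted p = 0.00391). HERV-Fc1-int read 230, 162 and 188 CPM in the mock IP, 116 and 106 CPM in b and 41.8 to 52.6 CPM in bl, a difference of 1.51 ± 0.31 (adjusted p = 0.0135). LTR6B, at 271 to 280 CPM in the mock IP against 156 and 171 CPM in b and 75.6 to 92.4 CPM in bl, was called at 1.31 ± 0.33 (adjusted p = 0.0445). LTR6B and HERVFH21-int (adjusted p = 0.0498) were no longer called without any 1 mock IP or bl library, and HERV-Fc1-int without mock IP replicate 1 (adjusted p = 0.0972) or 3 (0.0586).

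Leaving out any 1 library kept HERVH-int, LTR7, LTR7Y and LTR46-int called, with log2 differences of 1.06 to 1.20 for HERVH-int and 1.32 to 1.62 for LTR7. The count of subfamilies called higher was 4, 7 and 4 without mock IP replicate 1, 2 or 3, 21 and 19 without b replicate 1 or 2, and 5, 5, 6 and 6 without bl replicate 3, 4, 5 or 6. Without either b library, 14 subfamilies were called lower. Against b alone only 1 subfamily was called higher (0.0931%) and 0 lower, where 62 were lower at an unadjusted p under 0.05. This was MER110A, an ERV1 long terminal repeat, at 655, 653 and 605 CPM in the mock IP, 328 and 295 CPM in b and 390 to 443 CPM in bl (1.03 ± 0.19 over b, adjusted p = 0.00901). Against bl alone, 76 subfamilies (7.08%) were called higher and 22 (2.05%) lower.

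The share of all repeat counts, which needs no scaling factor, was also higher for HERVH with LTR7 in the mock IP. Shares add up to a whole, so a higher HERVH share lowers those of other repeats. HERVH with its LTR7 ends held 21.3%, 19.4% and 19.9% of repeat counts in the mock IP, 13.7% and 11.9% in b and 8.43% to 8.87% in bl. LTR elements as a class held 33.9% to 35.4% in the mock IP, 28.8% and 30.4% in b and 23.7% to 24.95% in bl. DNA transposons held 7.85% to 8.54% in the mock IP and 8.79% to 10.4% in total RNA. In the fits, the DNA transposon subfamilies had a median difference of 0.09 over b and -0.25 over bl, so their lower share against b was not seen there. For the HERVH with LTR7, LTR and DNA shares every mock IP library lay on 1 side of every total RNA library. The exact two-sided permutation test gave p = 0.0238 for each, the smallest that 3 against 6 libraries allow. Adjusted over the 25 shares of this comparison the value was 0.119, and 0 of 25 shares passed an adjusted p of 0.05 in the exact permutation test, where 2 lay wholly above total RNA and 3 wholly below. Against b, where the smallest exact p is 0.2, 4 of 25 shares lay wholly above and 17 wholly below. Against bl, where it is 0.0571, 12 lay wholly above and 8 wholly below.

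At single loci, 4188 (1.21%) were called higher in the mock IP than in total RNA and 620 (0.178%) lower. HERVH with LTR7 supplied 1139 of the 4188, or 27.2%, while its 5233 tested loci made up 1.51% of those tested, and 1 of the 620 lower. These loci also had more reads, which makes a call easier. Their median levels were 5.65 CPM in the mock IP, 3.51 CPM in b and 2.27 CPM in bl, against 0.88, 0.85 and 0.79 CPM over all loci. With library totals in place of TMM, 2109 loci were called higher and 736 lower. The loci with all 3 mock IP libraries above all 6 total RNA libraries numbered 25906 (7.46%), and 13640 (3.93%) had all 3 below. The count called higher was 343, 1187 and 912 without mock IP replicate 1, 2 or 3, 11837 and 9643 without b replicate 1 or 2, and 1139 to 1660 without any 1 bl library. For HERVH with LTR7 it was 77, 371 and 270, then 1937 and 1691, then 391 to 565 in the same order. Of the 5233 HERVH and LTR7 loci, 1 had whole-number values in all 9 libraries, so nearly every locus in this group had a fractional value in at least 1 library. Such values include reads shared between similar copies, and the rule by which the counting shared them is unknown.

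HERVH-int itself had 4032 loci tested, of which 816 were called higher over total RNA and 0 lower. Their median difference was 0.93, against 0.01 over all loci, and 0.80 over b against 0.10 for all loci. Over b, 208 were called higher and 5 lower, where 2743 loci (0.79%) of all kinds were called higher and 134 (0.0386%) lower. Over bl the median was 1.12 and 1938 were called higher, where 45719 loci (13.2%) were called higher and 32538 (9.37%) lower. The mock IP mean exceeded that of b at 100 of the 100 HERVH-int loci with the most mock IP reads and that of bl at 99, and at 98 the libraries did not overlap. That ranking used the mock IP values themselves, which favours the mock IP. Over all 4032 HERVH-int loci the fitted difference was above 0 at 89.9% over b and at 92.1% over bl. For all tested loci these shares were 55.4% and 53.1%. HERVH-int loci in no gene span (2634 loci, median 0.94) and those in gene spans (1398 loci, median 0.91) had similar medians. The 10 HERVH-int loci with the most reads held 11.2% of the HERVH-int counts in the mock IP, 11.3% in b and 10.9% in bl, so the most abundant copies took a like share of the family in each group.

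**Figure D2:**
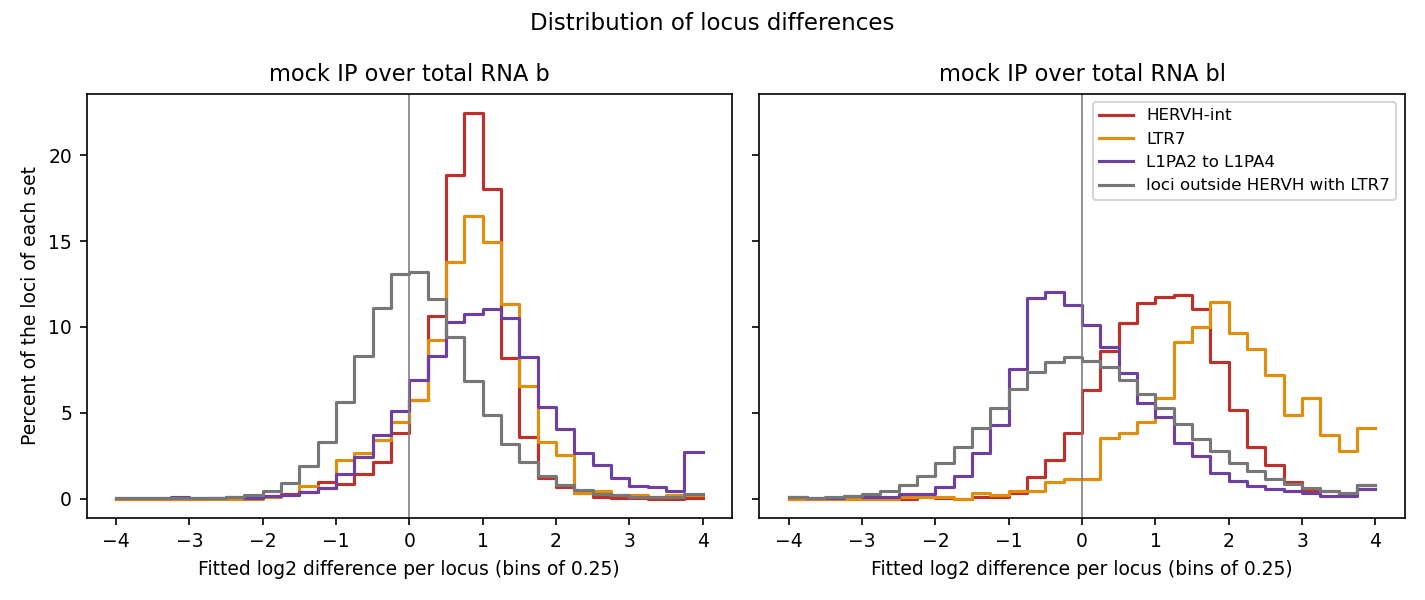
Percent of the loci of each set by fitted log2 difference, in bins of 0.25, for mock IP over total RNA b (left) and bl (right); values past the axis ends sit in the end bins. HERVH-int and LTR7 lie to the right of 0 in both panels, L1PA2 to L1PA4 lie to the right of 0 over b and are centred near 0 over bl, and the loci outside HERVH and LTR7 are centred near 0 in both (medians of 0.09 and 0.08).

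Longer HERVH-int loci were called more often. Of 2836 loci under 1 kb, 328 (11.6%) were called higher over total RNA, of 745 loci of 1 to 3 kb 275 (36.9%), and of 451 loci of 3 kb and over 213 (47.2%). Their median differences were 0.79, 1.27 and 1.31, and their median levels in the mock IP 5.58, 8.64 and 16.9 CPM, so the longer loci also had more reads. Over b the medians were closer together, at 0.78, 0.82 and 0.90. The LTR7 copies differed by place, taken from a HERVH-int locus on the same strand within 100 bases. At the 5′ end of HERVH-int, 156 of 395 LTR7 loci were called higher (39.5%, median 1.66). At the 3′ end, 101 of 386 were (26.2%, median 1.31), and 5 more lay between HERVH-int loci. Of LTR7 copies with no HERVH-int beside them 24 of 157 were (15.3%, median 1.06). Median mock IP levels were 4.58, 4.50 and 1.41 CPM in the same order, so the 5′ and 3′ ends had like levels. Over b the 3 medians were 0.999, 0.82 and 0.51. Of LTR7Y loci, 27 of 56 were called at the 5′ end (48.2%), 5 of 51 at the 3′ end (9.80%) and 2 of 17 alone (11.8%), so the 5′ end again had the highest share. LTR7B, an older relative of LTR7 that also flanks HERVH, had fewer calls: of its 94 loci 2 were called higher over total RNA, both among the 19 at the 5′ end. Its median was 0.21 over total RNA, -0.43 over b and 0.85 over bl, and by place it was 0.11 at the 5′ end, -0.66 at the 3′ end and -0.57 alone over b.

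**Figure D3:**
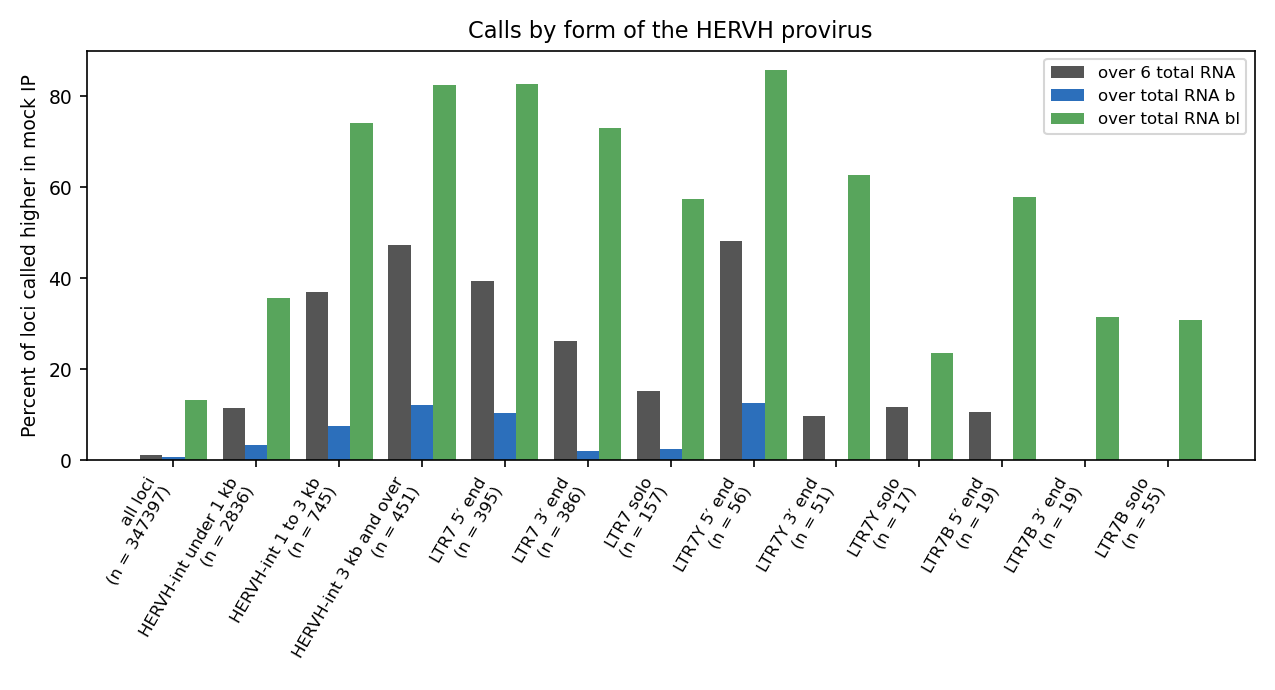
Percent of loci called higher in the mock IP, over all 6 total RNA libraries, over b and over bl, for all loci, for HERVH-int by length and for LTR7, LTR7Y and LTR7B by their place beside HERVH-int (5′ end, 3′ end or alone). Among all loci 1.21% were called over total RNA; the highest bars over total RNA are LTR7Y at the 5′ end (48.2%), HERVH-int of 3 kb and over (47.2%) and LTR7 at the 5′ end (39.5%).

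Several of the most abundant repeat loci of these cells belonged to HERVH. The HERVH-int locus at chr12:4018994-4021963 (hg38, plus strand), within the long noncoding gene LINC03141, had the most reads of any locus in the mock IP: 4525, 3694 and 3956 CPM there, 2547 and 2216 CPM in b and 1825 to 2316 CPM in bl. The groups did not overlap, and its difference of 0.90 ± 0.26 over total RNA did not pass (adjusted p = 0.0743). The locus at chr3:54636819-54639750 (minus strand) lies where the spans of ESRG, a HERVH-derived long noncoding RNA of embryonic stem cells, and CACNA2D3 overlap. It read 3810, 3179 and 3145 CPM in the mock IP, 1817 and 1570 CPM in b and 874 to 1074 CPM in bl. Its difference was 1.51 ± 0.30 (adjusted p = 0.011), and the adjusted p was 0.102 without mock IP replicate 1 and 0.0515 without replicate 3. A locus at chr7:83460121-83463207 (plus strand) in the span of SEMA3E, a guidance factor, read 2296, 1918 and 1953 CPM in the mock IP, 1099 and 914 CPM in b and 538 to 638 CPM in bl, a difference of 1.51 ± 0.30 (adjusted p = 0.0108, and 0.0972 and 0.0521 without mock IP replicate 1 or 3).

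The largest differences were at loci of lower level. The HERVH-int locus at chr19:20154966-20156337 (plus strand, in LOC105372310) read 99.1, 72.4 and 95.7 CPM in the mock IP, 16.8 and 16.6 CPM in b and 2.40 to 4.009 CPM in bl, a difference of 3.52 ± 0.48 (adjusted p = 0.00189). A HERVH-int locus at chr9:85881368-85881817 (plus strand, in no gene span) read 168, 138 and 139 CPM against 36.5 and 32.6 CPM in b and 6.25 to 7.98 CPM in bl (3.18 ± 0.49, adjusted p = 0.0026). An LTR7 at chr14:38190638-38191083 (plus strand, in no gene span) read 63.3, 50.5 and 49.3 CPM against 14.1 and 10.2 CPM in b and 1.73 to 2.34 CPM in bl (3.32 ± 0.51, adjusted p = 0.0026). An LTR7Y at chr14:31250670-31251138 and an LTR7 at chr4:24500975-24501425 differed by 3.15 ± 0.63 and 3.13 ± 0.54, and were not called without mock IP replicate 1 (adjusted p = 0.0902 and 0.0528). A HERVH-int locus at chr2:58314568-58315719 (plus strand, in no gene span) read 28.4, 21.1 and 23.6 CPM in the mock IP, 7.79 and 3.06 CPM in b and 0.126 to 2.46 CPM in bl (3.30 ± 0.63, adjusted p = 0.00976, and 0.0693 without mock IP replicate 1). At each of these 6 loci the mock IP was the highest group, which the rule that chose them required. Of the 2 series, b was the higher at each. The first 5 were also called over b, and the chr2 locus was not (2.16 ± 0.57, adjusted p = 0.0589). A pair of adjacent HERVH-int loci in KLRG2 (chr7:139461864-139464526 and chr7:139464527-139465412), pointed out after the values were seen, went the other way against b: the first read 9.04, 7.65 and 10.1 CPM in the mock IP, 28.2 and 23.6 CPM in b and 4.41 to 5.24 CPM in bl (-1.54 ± 0.34 over b, adjusted p = 0.0244).

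Annotated promoters show what such loci look like in sequence. The RefSeq promoter table (GRCh38.p14, 250 bases before to 50 after a gene's start) holds windows that tested loci cover, and 3 were chosen after the values were seen to show an HERVH-int, an L1 and a MIR case. Each is given 5′ to 3′ on the gene's strand, with the bases of the repeat locus in capitals. The HERVH-int locus lies on the strand of its gene. The L1MCb and MIR loci lie on the opposite strand, so their capitals are antisense to the repeat.
LOC339539 (chr1:42857372-42857671, plus strand, HERVH-int): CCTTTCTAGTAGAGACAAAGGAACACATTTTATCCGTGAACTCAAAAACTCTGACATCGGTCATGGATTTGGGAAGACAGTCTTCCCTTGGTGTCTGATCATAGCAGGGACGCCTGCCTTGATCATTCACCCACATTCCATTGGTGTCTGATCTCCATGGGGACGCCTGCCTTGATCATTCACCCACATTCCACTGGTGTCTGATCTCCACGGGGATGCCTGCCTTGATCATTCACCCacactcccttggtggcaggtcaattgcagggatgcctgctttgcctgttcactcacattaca
LOC107986840 (chr7:119706322-119706621, plus strand, L1MCb): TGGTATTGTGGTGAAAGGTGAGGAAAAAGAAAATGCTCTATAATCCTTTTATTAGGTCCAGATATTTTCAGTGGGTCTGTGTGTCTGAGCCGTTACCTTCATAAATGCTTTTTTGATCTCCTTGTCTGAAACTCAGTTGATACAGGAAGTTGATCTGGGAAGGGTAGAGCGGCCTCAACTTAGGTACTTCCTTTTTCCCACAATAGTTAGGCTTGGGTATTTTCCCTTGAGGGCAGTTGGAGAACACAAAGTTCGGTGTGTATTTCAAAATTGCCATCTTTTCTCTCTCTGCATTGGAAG
LOC124902779 (chr11:124623152-124623451, minus strand, MIR): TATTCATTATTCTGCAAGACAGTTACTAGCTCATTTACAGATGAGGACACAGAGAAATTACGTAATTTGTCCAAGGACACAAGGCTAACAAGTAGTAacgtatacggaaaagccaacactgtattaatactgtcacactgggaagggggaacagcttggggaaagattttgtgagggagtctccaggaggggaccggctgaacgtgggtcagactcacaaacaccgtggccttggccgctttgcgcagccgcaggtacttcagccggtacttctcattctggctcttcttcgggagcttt
The HERVH-int locus covered 238 of the 300 bases of the LOC339539 window and read 2.56, 1.28 and 2.40 CPM in the mock IP, 0.766 and 0.730 CPM in b and 0.0558 to 0.922 CPM in bl. All 3 mock IP libraries lay above total RNA, and the difference of 2.00 did not pass (adjusted p = 0.0878). The L1MCb locus covered all 300 bases of the LOC107986840 window, which lies within the span of LINC02476, and read 36.1, 44.2 and 37.6 CPM in the mock IP, 10.04 and 7.98 CPM in b and 89.5 to 139 CPM in bl. It was called higher over b (2.12 ± 0.33, adjusted p = 0.00505) and lower over bl (-1.42 ± 0.27, adjusted p = 0.000237). The MIR locus covered 97 bases of the LOC124902779 window and read 8.73, 10.6 and 6.91 CPM in the mock IP, 2.64 and 2.82 CPM in b and 2.67 to 3.07 CPM in bl. It was called over both series, at 1.68 ± 0.38 over b (adjusted p = 0.0251) and 1.62 ± 0.30 over bl (adjusted p = 0.000242).

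Young L1 elements stood higher in the mock IP than in b at many single loci and in their share of counts. Of the L1 subfamilies 0 were called over b, where 1 of all 1074 (0.0931%) was. Young L1 held 4.09% to 4.54% of repeat counts in the mock IP, 2.85% and 3.17% in b and 4.53% to 6.52% in bl. The L1M subfamilies, most of L1, held 17.3% to 19.1% in the mock IP, 17.6% and 18.9% in b and 29.1% to 31.0% in bl, so that the mock IP overlapped b and lay below bl. L1HS, the youngest and still mobile subfamily, read 1864, 1829 and 1686 CPM in the mock IP, 941 and 826 CPM in b and 1750 to 2707 CPM in bl. The mock IP lay above b and overlapped bl. As a subfamily it did not pass over b (1.02 ± 0.39, adjusted p = 0.171) or over bl (-0.24 ± 0.32, adjusted p = 0.506). L1PA3, an ape L1 subfamily, read 8431, 8297 and 7543 CPM in the mock IP, 4982 and 4427 CPM in b and 7711 to 11472 CPM in bl (0.78 ± 0.33 over b, adjusted p = 0.211). At single loci the calls over b were mostly L1: 2055 of the 2743 loci called higher over b, or 74.9%, where L1 made up 33.8% of the loci tested. The median over b was 1.13 for 878 L1HS loci, 1.02 for 2070 L1PA2 loci, 0.998 for 3963 L1PA3 loci and 0.93 for 2987 L1PA4 loci, and was lower in each older subfamily, at 0.76 for L1PA5, 0.60 for L1PA6 and 0.56 for L1PA7. It was 0.43 for older primate L1 and 0.20 for the L1M subfamilies shared by mammals, against 0.10 over all loci. Over bl the young L1 loci had a median of -0.04, the older primate L1 -0.27 and the L1M subfamilies -0.41.

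Among young L1 loci, those of 5 kb and over, close to the length of a full L1, had a median of 0.88 over b and -0.33 over bl, and those under 1 kb 0.53 and 0.33. The order of the groups thus depended on the series for long L1 but not for short fragments. L1PA5 at chrX:23560662-23566793 (minus strand, in no gene span), pointed out after the values were seen, read 423, 435 and 370 CPM in the mock IP, 168 and 128 CPM in b and 497 to 818 CPM in bl. It was called over b (1.47 ± 0.29, adjusted p = 0.0135) and lay between the 2 series without overlap. L1M2 at chr2:77094031-77095495 in LRRTM4, a synaptic adhesion gene, also chosen after its values were seen, read 261, 301 and 245 CPM in the mock IP, 131 and 119 CPM in b and 417 to 495 CPM in bl (1.11 ± 0.27 over b, adjusted p = 0.0365). The oldest L1 were closest to b: L1M5, with 5487 loci, had medians of 0.21 over b and -0.70 over bl, where 1301 loci were called lower, and L1MEd 0.19 and -0.75. Reads from L1HS and the youngest L1PA copies fit many near-identical places, and their single loci are uncertain for that reason.

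Alu elements ran opposite to L1. AluSx, one of the most numerous subfamilies, read 13910, 11026 and 12999 CPM in the mock IP, 15138 and 14594 CPM in b and 5636 to 6213 CPM in bl. The mock IP lay below b and above bl in every library, with -0.23 ± 0.11 over b (adjusted p = 0.255) and 1.09 ± 0.09 over bl (adjusted p = 3.68e-08). Alu as a whole held 12.6% to 14.9% of repeat counts in the mock IP, 18.3% and 18.6% in b and 6.54% to 7.29% in bl. Of 57453 Alu loci, 18248 (31.8%) were called higher over bl and 471 (0.82%) lower, against 13.2% and 9.37% of all loci (median 1.14). Over b 155 (0.27%) were called higher and 55 (0.0957%) lower, against 0.79% and 0.0386% of all loci (median -0.12). As subfamily sums, AluYa5 and AluYb8, which are among the youngest Alu, were not called over b, bl or total RNA. AluYa5 read 279, 201 and 266 CPM in the mock IP, 272 and 280 CPM in b and 157 to 278 CPM in bl, with overlap of the mock IP and both series. Of 25 AluY, 17 AluS and 4 AluJ subfamilies, 13, 15 and 1 were called higher over bl and none lower, and none was called over b. Of all 1074 subfamilies, 7.08% were called higher and 2.05% lower over bl. Over b only 1 (0.0931%) was called, so the lack of Alu calls there is near the share of all subfamilies.

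HERVK went with b. HERVK-int read 9899, 11296 and 9791 CPM in the mock IP, 9319 and 9452 CPM in b and 23621 to 28810 CPM in bl, so that the mock IP was above b in every library by a small margin (0.14 ± 0.13, adjusted p = 0.549) and below bl (-1.36 ± 0.12, adjusted p = 5.3e-08). Its LTR5_Hs ends had the reverse order in total RNA, at 820 to 996 CPM in the mock IP, 925 and 945 CPM in b and 454 to 576 CPM in bl. Of 130 HERVK-int loci, 42 (32.3%) were called lower over bl and 8 (6.15%) higher, against 9.37% and 13.2% of all loci. Over b, 2 were called lower and 0 higher. Their medians were 0.04 over b and -0.66 over bl. The 3 HERVK-int loci with the most reads in total RNA are given singly. That ranking used total RNA, where bl gave 4 of the 6 libraries, which favours loci high in bl. At chr5:156660384-156665917 (minus strand, in SGCD, the delta-sarcoglycan gene) the levels were 3208, 4133 and 3519 CPM in the mock IP, 2878 and 2260 CPM in b and 5827 to 10290 CPM in bl. At chr22:23538730-23546008, in the overlapping spans of PCAT14 and LOC124900476, they were 1834 to 2158 CPM, 1878 and 1918 CPM, and 4592 to 5580 CPM. At chr22:18939642-18945174, in LOC122455341, they were 1473 to 1651 CPM, 1498 and 1695 CPM, and 4759 to 5833 CPM.

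Against the whole of total RNA, the lower calls followed the same line. The HERVK-int locus at chr3:185565226-185570759 (minus strand, in no gene span) read 162, 154 and 176 CPM in the mock IP, 192 and 191 CPM in b and 976 to 1697 CPM in bl, and was called lower over total RNA (-2.42 ± 0.54, adjusted p = 0.0224) but not over b (-0.23 ± 0.29, adjusted p = 0.857). The 10 named lower loci were below both series in every library because the rule that chose them required it. Their differences over b were -0.89 to -0.23, none of which passed. A MamRTE1 locus at chr4:133314413-133314770 had the largest difference, with 3.60, 4.68 and 4.43 CPM in the mock IP, 4.72 and 5.20 CPM in b and 29.4 to 44.3 CPM in bl (-2.65 ± 0.59 over total RNA, adjusted p = 0.0227). Each of the 10 was no longer called without mock IP replicate 1. A pair of HERVK-int loci, pointed out after the values were seen, were below both series: chr7:4591993-4599432, which makes up all the repeat reads of the gene span LOC124901580, read 36.2, 31.2 and 39.5 CPM in the mock IP, 161 and 70.2 CPM in b and 62.0 to 152 CPM in bl (-1.70 ± 0.37 over b, adjusted p = 0.0211). The other, chr3:148563690-148567609, read 100, 77.6 and 82.4 CPM in the mock IP, 158 and 310 CPM in b and 203 to 417 CPM in bl (-1.43 ± 0.34 over b, adjusted p = 0.0323). At these 2 loci the levels varied more between total RNA libraries than between mock IP libraries.

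**Figure D4:**
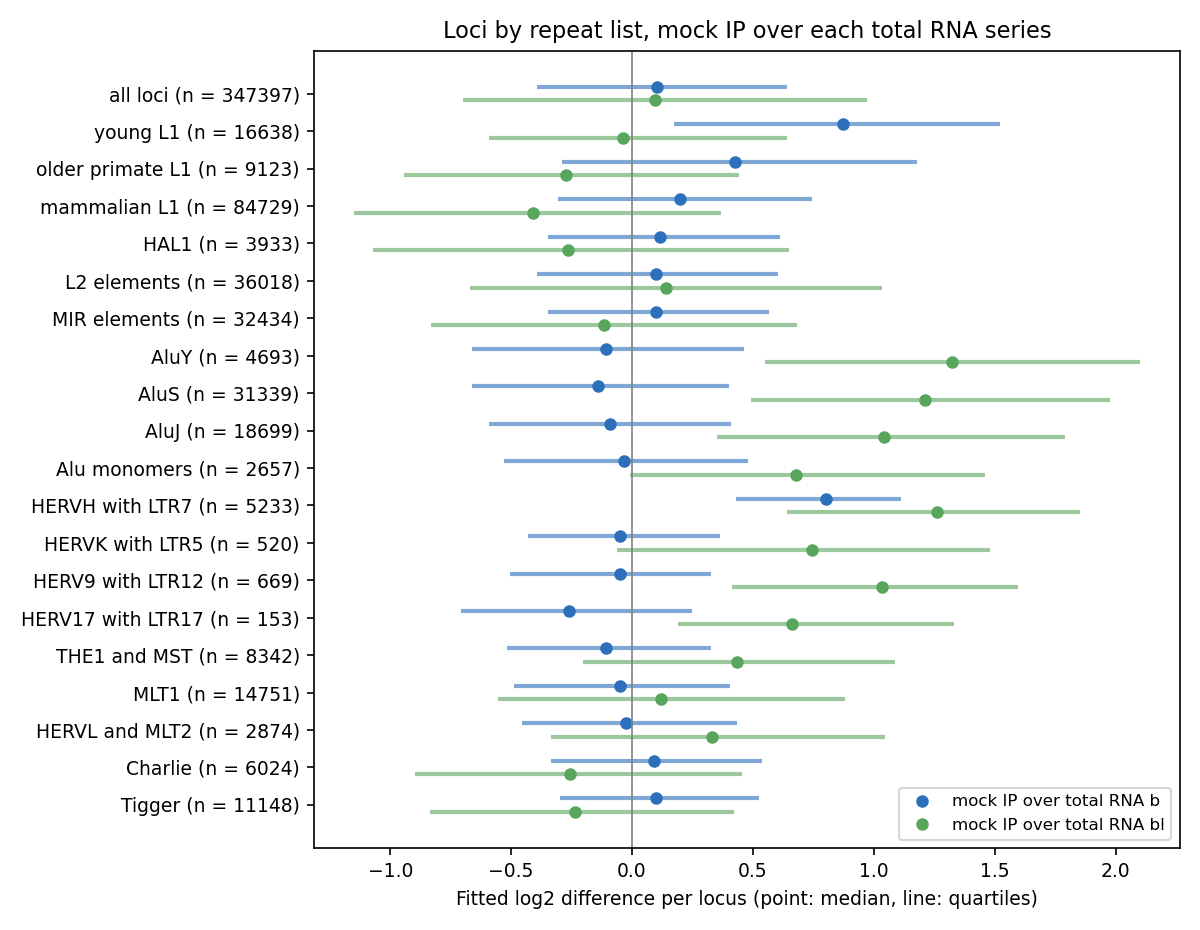
Fitted log2 difference per locus, as the median (points) and quartiles (lines), for all loci and 19 repeat lists, of mock IP over total RNA b and over bl. HERVH with LTR7 is the list with both medians well above 0 (0.80 and 1.26), and young L1 is high over b alone (0.87). Lists high over bl alone include AluY (1.32), AluS (1.21), AluJ (1.04) and HERV9 with LTR12 (1.03).

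The other lists lay between these patterns. HERV9 with LTR12 and HERV17 with LTR17, further retroviral families, had medians of -0.05 and -0.26 over b and 1.03 and 0.66 over bl. The older MaLR elements THE1 and MST had -0.11 and 0.44, MLT1 -0.05 and 0.12, and HERVL with MLT2 -0.02 and 0.33. L2 and MIR, the old repeats shared by mammals, had 0.10 each over b, and 0.14 and -0.11 over bl, close to the 0.10 of all loci. The DNA transposons Charlie and Tigger had 0.09 and 0.10 over b and -0.26 and -0.24 over bl. With library totals in place of TMM every log2 difference fell by about 0.21 over b, 0.06 over bl and 0.11 over total RNA, so that medians of 0.20 or less over b, those of the L1M, HAL1, L2, MIR, Charlie and Tigger lists, change sign under that scaling while those of HERVH with LTR7, young L1 and older primate L1 do not.

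Single loci of other kinds were also among the largest differences. L1MB8 at chr5:105314502-105315275 (minus strand, in LOC105379110) read 34.0, 49.1 and 23.4 CPM in the mock IP, 2.21 and 3.36 CPM in b and 3.07 to 4.06 CPM in bl, and was called over b (3.67 ± 0.51, adjusted p = 0.00206) and over bl (3.36 ± 0.38) at about the same size. L2c at chr16:2769421-2770193 in SRRM2, a protein of nuclear speckles, read 78.3, 25.6 and 60.3 CPM in the mock IP, 13.1 and 9.83 CPM in b and 0.495 to 0.717 CPM in bl. Its difference was 3.68 ± 0.80 (adjusted p = 0.0191, 0.127 and 0.0729 without mock IP replicate 1 or 3, and just above 0.05 without bl replicate 4, 5 or 6). L4_A_Mam at chr7:33751118-33751373 (minus strand, in no gene span) read 25.6, 15.6 and 57.5 CPM in the mock IP against 7.28 and 6.42 CPM in b and 1.39 to 2.52 CPM in bl (3.12 ± 0.49, adjusted p = 0.00319). The mock IP replicates themselves differed by over 3-fold at the last 2. An AluJb at chr20:34855816-34856091 in GGT7 read 25.2, 21.9 and 21.3 CPM against 6.13 and 5.20 CPM in b and 0.630 to 1.54 CPM in bl (3.08 ± 0.49, adjusted p = 0.00338). L1MEg at chr17:82917544-82917790 in TBCD, pointed out after its values were seen, rested on 1 library: it read 94.5 CPM in mock IP replicate 3, 0.305 and 0.243 CPM in replicates 1 and 2 and 0 to 0.808 CPM in total RNA. The fit called it at 6.94 ± 1.10 (adjusted p = 0.00337), although mock IP replicates 1 and 2 lay within the range of total RNA.

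Repeat reads within the span of exactly 1 RefSeq gene were summed to see which transcripts they may come from. Of 13240 gene spans tested, 434 (3.28%) were called higher in the mock IP than in total RNA and 36 (0.272%) lower. Library totals in place of TMM gave 187 higher and 59 lower. Over b, 157 (1.19%) were called higher and 14 (0.106%) lower, and over bl 3070 (23.2%) higher and 366 (2.76%) lower. In 1675 spans (12.7%) all 3 mock IP libraries lay above total RNA, and in 328 (2.48%) below. The count called higher was 104, 271 and 192 without mock IP replicate 1, 2 or 3, 1276 and 1231 without b replicate 1 or 2, and 218 to 247 without any 1 bl library. Short spans were called most: 231 of 2836 under 20 kb, 168 of 6660 of 20 to 100 kb, 25 of 2836 of 100 to 300 kb and 10 of 908 longer ones, with medians of 0.40, 0.22, 0.08 and 0.05 beside 0.19 over all spans. Loci were summed whether in exons or introns and on either strand.

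**Figure D5:**
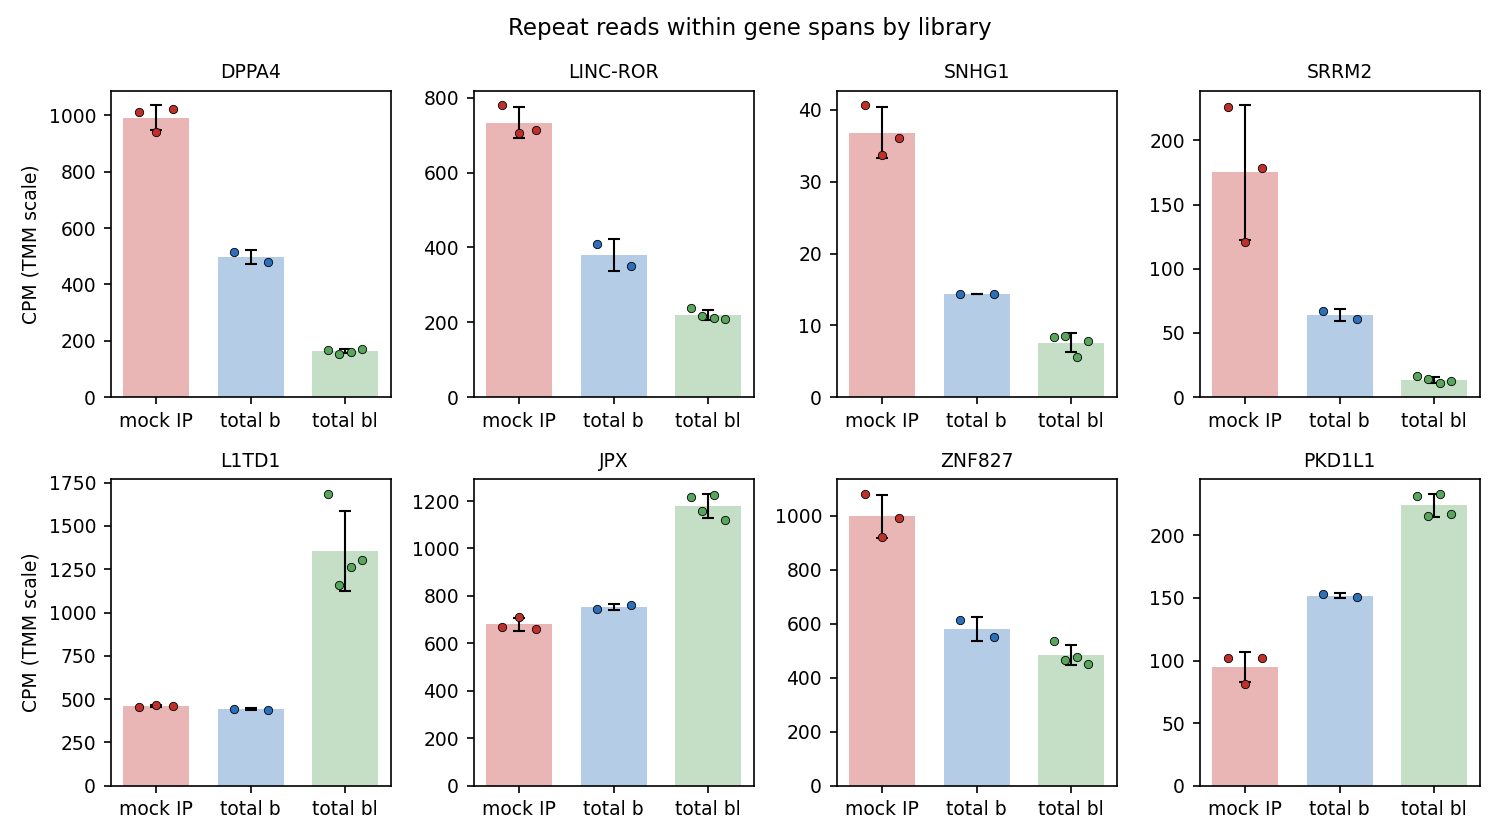
Repeat reads within 8 gene spans in each library, in CPM on the TMM scale, with means (bars), SD (whiskers) and single libraries (points). DPPA4, LINC-ROR, SNHG1, SRRM2 and ZNF827 are highest in the mock IP, PKD1L1 is lowest in the mock IP (95.0 CPM), and L1TD1 and JPX in the mock IP lie near b and below bl.

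Among the named spans with a higher level, SRRM2 had the largest difference apart from LINC01411: 226, 121 and 178 CPM in the mock IP, 67.1 and 60.5 CPM in b and 10.8 to 16.4 CPM in bl (2.52 ± 0.48, adjusted p = 0.0058). CDCA3, a cell division gene, read 47.6, 42.7 and 43.4 CPM against 18.04 and 15.9 CPM in b and 3.21 to 4.71 CPM in bl (2.43 ± 0.46, adjusted p = 0.00545). GGT7, SHKBP1, FXYD5, SLC29A2, SHC2, PKD1 and THOP1 had differences of 2.00 to 2.17. The last 4 were no longer called without mock IP replicate 1 or 3, or with library totals. Fitted on the 9 libraries alone, SRRM2, CDCA3 and FXYD5 had adjusted p-values of 0.0648, 0.0605 and 0.054. LINC01411 had the largest, at 2.78 ± 0.45 (adjusted p = 0.00184), from 49.6, 6.68 and 8.34 CPM in the mock IP against 2.63 and 2.94 CPM in b and 2.33 to 6.05 CPM in bl. Without mock IP replicate 1 it was 1.25 (adjusted p = 0.0368). On the lower side, PKD1L1 read 102, 81.2 and 102 CPM in the mock IP, 153 and 151 CPM in b and 215 to 233 CPM in bl (-1.07 ± 0.15, adjusted p = 0.000605). NDN, an imprinted gene, read 10.2, 8.99 and 9.39 CPM against 18.6 and 18.2 CPM in b and 19.2 to 51.8 CPM in bl (-1.44 ± 0.33, adjusted p = 0.017, and 0.0655 to 0.0874 without any 1 mock IP library). EMSLR and STARD4 were lower than bl and near b, with -1.21 ± 0.29 and -1.26 ± 0.32 over total RNA and -0.28 and -0.14 over b, and neither was called without any 1 mock IP library.

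Repeat reads in spans linked to HERVH, from a list of stem cell RNAs known to begin in or hold it, were high in the mock IP. Of 6 such spans tested, 3 were called higher over total RNA, 1 over b and 4 over bl. Of all spans 3.28%, 1.19% and 23.2% were. The medians were 1.09, 0.85 and 1.40 against 0.19, 0.08 and 0.31 over all spans. These sums hold HERVH-int reads already counted above and are not separate evidence. A single HERVH-int locus held 84.4% of the mock IP reads of ABHD12B, 50.5% of LINC00458, 42.3% of LINC-ROR, 41.0% of LNCPRESS2 and 30.0% of HHLA1. In LINC01108, 1 of the 3 called over total RNA (1.81 ± 0.42, adjusted p = 0.0184), a MER91A locus led, with 60.1%. LINC-ROR, a long noncoding RNA of stem cells, read 780, 707 and 714 CPM in the mock IP, 410 and 349 CPM in b and 210 to 240 CPM in bl (1.43 ± 0.20, adjusted p = 0.000706), and HERVH-int was the leading repeat within it. ABHD12B read 1002, 829 and 874 CPM against 611 and 573 CPM in b and 261 to 328 CPM in bl (1.21 ± 0.23, adjusted p = 0.00604). LNCPRESS2, a noncoding RNA of human stem cells, read 580, 535 and 551 CPM against 287 and 256 CPM in b and 284 to 298 CPM in bl. It was called over b (1.03 ± 0.15, adjusted p = 0.00124) and at 0.96 ± 0.13 missed the 2-fold mark over total RNA. HHLA1 missed it likewise, at 0.97 ± 0.16 (adjusted p = 0.00183). ZNF827, whose leading repeat was also HERVH-int, read 1083, 923 and 991 CPM against 613 and 551 CPM in b and 452 to 536 CPM in bl (0.95 ± 0.11, adjusted p = 0.000168).

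Of 15 pluripotency genes with enough reads, 1 (6.67%) was called higher over total RNA, 0 over b, and 7 (46.7%) higher and 1 (6.67%) lower over bl. Over all spans these shares were 3.28%, 1.19%, 23.2% and 2.76%. That 1 was DPPA4, a chromatin factor of pluripotent cells, at 1011, 941 and 1023 CPM in the mock IP, 516 and 479 CPM in b and 154 to 170 CPM in bl (1.85 ± 0.33, adjusted p = 0.00409, and 0.0571 in a fit on the 9 libraries alone), with 80.5% of its mock IP reads in a single AluSx1 locus. Over b it reached 0.99 ± 0.15 (adjusted p = 0.00214), just under 2-fold. POU5F1, the OCT4 gene, read 26.9, 20.5 and 21.8 CPM in the mock IP, 16.2 and 17.2 CPM in b and 7.94 to 11.4 CPM in bl (0.95 ± 0.25, adjusted p = 0.0346, under 2-fold). NANOG read 32.1 to 42.1 CPM against 51.6 and 53.5 CPM in b and 14.4 to 16.7 CPM in bl, and was called over bl alone (1.31 ± 0.20). L1TD1, a gene derived from the L1 ORF1 sequence that binds RNA, read 456, 468 and 460 CPM in the mock IP, 445 and 437 CPM in b and 1158 to 1687 CPM in bl. It did not differ beyond its error over b (0.06 ± 0.28, adjusted p = 0.937) and was lower than bl (-1.55 ± 0.24).

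Of 6 small nucleolar RNA host genes tested, 2 were called higher over total RNA (median 1.22) and 5 over bl. Over b, 1 was called higher and 1 lower (median 0.43). Of all spans 3.28% were called higher over total RNA and 23.2% over bl. Over b, 1.19% were called higher and 0.106% lower. SNHG1 read 40.7, 33.7 and 36.1 CPM against 14.3 CPM in both b libraries and 5.61 to 8.54 CPM in bl, a difference of 1.90 ± 0.22 (adjusted p = 0.000168) that held over b (1.36 ± 0.18, adjusted p = 0.000798), all from 1 Alu monomer (FLAM_C). GAS5 read 215, 159 and 212 CPM against 120 and 116 CPM in b and 53.9 to 83.6 CPM in bl (1.22 ± 0.21, adjusted p = 0.00321). SNHG16 was the 1 lower over b, at 28.2 to 36.8 CPM against 69.6 and 66.9 CPM (-1.11, adjusted p = 0.00212). Of 52 ribosomal protein genes, 8 (15.4%) were called higher over total RNA (median 0.63), 1 (1.92%) over b (median 0.04) and 32 (61.5%) over bl (median 1.28), with 0 lower in each. Against 3.28%, 1.19% and 23.2% of all spans, the share over b was near that of all spans. RPL26 was the most abundant of the 8, at 39.4, 39.9 and 43.2 CPM against 25.2 and 23.3 CPM in b and 9.14 to 10.3 CPM in bl (1.48 ± 0.29, adjusted p = 0.00641).

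Of 10 nuclear long noncoding RNAs, 1 was called higher over total RNA and 0 over b, with medians of 0.26 and -0.13. Over all spans 3.28% and 1.19% were called higher, with medians of 0.19 and 0.08. With 10 members, such counts cannot be told from those shares. NEAT1, the scaffold of paraspeckles, was that 1, at 304, 186 and 229 CPM against 173 and 182 CPM in b and 61.8 to 71.3 CPM in bl (1.21 ± 0.31, adjusted p = 0.0297, 0.198 without mock IP replicate 1, 0.0858 without replicate 3 and 0.0628 to 0.0753 without any 1 bl library). JPX, a noncoding activator of X inactivation, read 660 to 710 CPM in the mock IP, 745 and 764 CPM in b and 1120 to 1227 CPM in bl, an adjusted p of 0.0442 at under 2-fold. Of 392 zinc finger genes, 5 (1.28%) were called higher and 2 (0.51%) lower over total RNA, and 1 (0.255%) higher and 1 lower over b, with shares of higher calls under the 3.28% and 1.19% of all spans. Of 3 neural and germ layer genes with enough reads, 1 was called, MAP2, at 4.25 to 8.06 CPM in the mock IP against 1.46 and 1.62 CPM in b and 2.46 to 4.61 CPM in bl (1.12 ± 0.29, adjusted p = 0.0329), and without mock IP replicate 1 or 3 its adjusted p was 0.272 or 0.061. None of 2 fibroblast genes and 1 blood cell gene tested was called.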

How the data were processed

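RIP-seq and total RNA libraries were made from N2102Ep clone 2/A6. Per the labels' protocols, RNA was taken from the affinity media with TRIzol and phenol-chloroform, treated with DNase and made into libraries with a Trio RNA-seq kit and probes that remove human ribosomal RNA. Per the submitters' processing notes, STAR and the hg38 build were used. No label or header names the counting program. The authors deposited estimated counts per single repeat locus, not all of them whole numbers. Of the table's 60 columns, 17 match a labelled library and 43 were not used.

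Counts were rounded to whole numbers and fitted with edgeR 4.0.16 (R 4.3.3, quasi-likelihood test) across all 17 libraries with the group as the only term, and once more with series b and bl as separate groups. TMM factors came from the sums per subfamily of all 17 libraries and were 1.01 to 1.06 in the mock IP and 1.05 to 1.21 in total RNA. Loci needed a summed count of 100, subfamilies a filterByExpr minimum count of 10 and gene spans one of 50. A gene span is the RefSeq GRCh38.p14 gene from start to end, and loci in several spans were left out of these sums. Adjusted p-values are Benjamini-Hochberg values over all features of a table. Shares were compared with exact two-sided permutation tests in scipy 1.17.1, adjusted over 25 shares. Named loci and spans are the 10 highest and 10 lowest changes among those called, where 1 group averaged 20 CPM or more and the groups did not overlap (loci at most 1 per 100 kb), the 5 loci with the most reads in each group, fixed subfamilies, and the 2 members of each gene list with the smallest p. The members and lists were chosen with earlier results of these data known. The fits were tested on simulated data. Alternatives were library totals, DESeq2 1.42.0, other filters, each series alone, a replicate block and leaving out each library.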

Additional observations from a re-analysis of the deposited data

Results flagged for a closer look

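Of 202 groups of 4 to 6 libraries examined for single values far from the others, 7 held one, where chance gives about 1 in 20. At the L4_A_Mam locus on chromosome 7, bl replicate 5 was lowest at 1.39 CPM, with a median of 2.51 CPM in the other 3 bl libraries. At the HERVH-int locus where the spans of ESRG and CACNA2D3 overlap, bl replicate 3 was highest at 1074 CPM, with a median of 896 CPM in the others. In LINC01411, total RNA replicate 6 was highest at 6.05 CPM, with a median of 2.65 CPM in the others, both among all 6 total RNA libraries and among the 4 of bl. In LNCPRESS2, total RNA replicate 2 was lowest at 256 CPM against a median of 287 CPM. In LOC124901580, bl replicate 4 was lowest at 62.0 CPM against 149 CPM. In NDN, total RNA replicate 6 was highest at 51.8 CPM against 19.2 CPM.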

How the results depend on the processing

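No called difference of a named feature turned its direction under an alternative that was run: of 1362 values, 1080 kept their side of the threshold, 245 were no longer called and 37 became called. The exact test of shares is too small for its threshold to say anything of their stability. Counts of calls moved far more, with the total RNA series, the libraries left out and the replicate block. Against b alone 1 subfamily was called higher, 2743 loci higher and 134 lower, 269 HERVH and LTR7 loci higher, and 157 gene spans higher and 14 lower. Against bl alone these were 76 and 22 subfamilies, 45719 and 32538 loci, 2774 HERVH and LTR7 loci, and 3070 and 366 spans. Against the mean of b and bl, 2 subfamilies were lower, 14920 loci higher and 2175 lower, 2004 HERVH and LTR7 loci higher and 1090 spans higher. Library totals, which shift log2 differences by -0.11, gave 10 subfamilies lower, 2109 loci and 692 HERVH and LTR7 loci higher, and 187 spans higher and 59 lower. The 9 libraries alone gave 1 subfamily higher, 323 loci lower, and 150 spans higher and 7 lower, and DESeq2 gave 6 subfamilies lower. A summed count of 500 gave 1536 loci lower, and a minimum count of 100 gave 2512 higher and 1239 lower. Only loci with whole values, of which 1 was HERVH or LTR7, gave 509 higher and 87 lower, and 0 HERVH or LTR7 loci. The cause was not tested. Without any 1 library, 4 to 21 subfamilies were higher and 0 to 14 lower, 343 to 11837 loci higher and 3 to 7084 lower, 77 to 1937 HERVH and LTR7 loci higher, and 104 to 1276 spans higher and 3 to 151 lower. The shares differed by 9.62 to 10.9 points for HERVH with LTR7, 8.10 to 9.44 for LTR, -12.0 to -8.35 for LINE, 1.72 to 4.23 for SINE and -1.61 to -1.26 for DNA elements.

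Deviations of same-numbered mock IP and total RNA libraries correlated across 1074 subfamilies at 0.44, -0.52 and -0.23. These 3 values, of both signs, are too few to show whether replicate numbers pair the libraries. With the replicate number as a block, edgeR called 4 subfamilies higher, 47 loci higher and 0 lower (24107 at an unadjusted p under 0.05), 13 HERVH and LTR7 loci higher, and 97 spans higher and 1 lower. HERVH-int was not called with this block (0.97 ± 0.22, adjusted p = 0.0781).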
